A study of Rattus norvegicus with 4 samples.

Results

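Milk-protein mammary epithelial cells were 174 cells of 34904 that passed quality control, among 38282 deposited from rat abdominal midline fascia. Cells passed with at least 300 detected genes and at most 20% of their UMIs (unique molecules counted at the 3′ end of transcripts) on mitochondrial genes. A member had at least 100 UMIs per 10000 on 5 milk genes together (Csn1s1, Csn2, Lalba, Wap and Glycam1), at least 2 UMIs of the keratins Krt8 and Krt18, and 0 UMIs of the leukocyte gene Ptprc and of the endothelial gene Pecam1. The rule read the same counts that are described here, so high milk genes and keratins in the members are its consequence and carry no test.

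Single-cell RNA was measured in 4 droplet libraries from subcutaneous fascia of the ventral midline of rats with Salmonella-induced dysentery. The first group, acupuncture replicates 1 and 2, came from dysenteric rats treated with acupuncture. The second group, dysentery replicates 1 and 2, came from dysenteric rats without acupuncture. The study asks how fascia cells respond to acupuncture, and no uninfected group is analysed here. The labels give no strain, age, sex or reproductive state, and they do not say whether the libraries of a group came from separate rats, so each p-value covers library-to-library spread alone, which may be technical. Titles, descriptions and the design text place the libraries as given here, but the treatment field of each library names the opposite group, so every sign between groups would turn if that field were right.

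Mammary glands of rats lie in the subcutaneous tissue of the ventral body wall. Their ducts and alveoli have an inner luminal layer, which makes milk, and an outer contractile basal layer. Prolactin, acting through the Jak2 kinase and the transcription factor Stat5 together with Elf5, turns on genes for the caseins, which form micelles, and for the whey proteins, which stay in solution. Alpha-lactalbumin (Lalba) is the whey protein that lets a Golgi galactosyltransferase make lactose.

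Promoters of Csn1s1, Csn2, Glycam1 and Lalba are shown because the members were chosen on these genes. Those of Csn1s2a and Csn1s2b are shown because the caseins differed in how far they varied between libraries. Wap, also a gene of the rule, and Csn3 were searched in the same way, but their sequences are not printed. The sequences are the 250 bases before the annotated start in RefSeq (build GRCr8), read 5′ to 3′ on the strand of the gene, and capitals mark the motif TTCNNNGAA, the core that Stat5 binds, which reads the same on both strands.
Csn1s1, alpha-S1-casein, chr14:20638850-20639099, minus strand: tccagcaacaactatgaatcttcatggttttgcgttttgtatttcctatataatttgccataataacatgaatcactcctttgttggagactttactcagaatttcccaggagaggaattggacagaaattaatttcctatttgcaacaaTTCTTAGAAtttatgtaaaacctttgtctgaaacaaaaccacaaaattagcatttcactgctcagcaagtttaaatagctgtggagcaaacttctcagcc
Csn2, beta-casein, chr14:20601574-20601823, plus strand: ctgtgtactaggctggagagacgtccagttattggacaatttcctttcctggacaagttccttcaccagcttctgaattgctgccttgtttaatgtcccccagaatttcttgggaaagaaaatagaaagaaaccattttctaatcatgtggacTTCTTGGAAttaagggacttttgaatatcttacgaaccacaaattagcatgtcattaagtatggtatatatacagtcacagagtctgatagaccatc
Csn1s2a, an alpha-S2-casein, chr14:20574472-20574721, minus strand: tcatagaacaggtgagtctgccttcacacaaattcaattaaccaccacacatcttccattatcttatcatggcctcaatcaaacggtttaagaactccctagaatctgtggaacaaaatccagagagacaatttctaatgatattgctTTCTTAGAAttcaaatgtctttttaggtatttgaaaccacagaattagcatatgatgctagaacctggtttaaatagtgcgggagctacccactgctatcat
Csn1s2b, an alpha-S2-casein, chr14:20545619-20545868, minus strand: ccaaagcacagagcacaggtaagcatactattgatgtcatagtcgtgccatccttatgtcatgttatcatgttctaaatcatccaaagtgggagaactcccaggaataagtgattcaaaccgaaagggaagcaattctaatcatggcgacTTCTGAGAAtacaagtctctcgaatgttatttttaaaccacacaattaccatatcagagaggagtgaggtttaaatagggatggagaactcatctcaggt
Glycam1, a mucin-like milk glycoprotein, chr7:136561300-136561549, minus strand: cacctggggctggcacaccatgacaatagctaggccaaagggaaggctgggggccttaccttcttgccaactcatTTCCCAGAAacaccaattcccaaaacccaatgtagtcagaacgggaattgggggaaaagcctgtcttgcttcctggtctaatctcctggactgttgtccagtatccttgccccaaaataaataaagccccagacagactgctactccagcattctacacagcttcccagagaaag
Lalba, alpha-lactalbumin, chr7:131507073-131507322, minus strand: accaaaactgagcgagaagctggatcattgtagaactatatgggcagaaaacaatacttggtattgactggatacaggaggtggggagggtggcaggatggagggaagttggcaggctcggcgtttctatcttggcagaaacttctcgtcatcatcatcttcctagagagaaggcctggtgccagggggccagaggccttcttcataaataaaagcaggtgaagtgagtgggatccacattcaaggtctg

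The motif began 100 bases before the start in Csn1s1, 97 in Csn2, 102 in Csn1s2a and 100 in Csn1s2b, and 175 bases before the start in Glycam1. It was not in these 250 letters of Csn3, Lalba or Wap. Over all RefSeq rat promoters of this length, 2566 of 33469 held it (7.67%). Of the 18 promoters matched to the list of caseins and whey proteins, 6 held it (33.3%). It was in 0 of 23 promoters of milk fat genes, 0 of 13 of luminal keratins and junctions and 1 of 21 of secretory pathway chaperones. The lists kept 1 promoter per gene, while the share over all promoters did not. The 4 caseins that hold it at nearly the same distance include Csn2 and Csn1s2a, which of the caseins differed most between libraries of members, and Csn1s1 and Csn1s2b, which differed less. A match of letters is a description and not evidence of binding.

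The 174 members were spread unevenly over the libraries. Acupuncture replicate 1 held 69 of 8248 cells and acupuncture replicate 2 held 27 of 9252, against 67 of 6665 in dysentery replicate 1 and 11 of 10739 in dysentery replicate 2. These are shares of 0.837% (exact 95% Clopper-Pearson interval 0.651 to 1.06) and 0.292% (0.192 to 0.424) with acupuncture, against 1.01% (0.780 to 1.27) and 0.102% (0.0511 to 0.183) in dysentery. In each group the library numbered 1 held the larger share, and the groups overlap fully. The mean share was 0.564% ± 0.385 with acupuncture and 0.554% ± 0.638 in dysentery (SD, n = 2 each), a difference of 0.0104 percentage points (two-sided exact permutation p = 1). With 2 libraries against 2, that test cannot go below 0.333. Intervals cover counting error only.

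Depth differed as well. Members had a median of 19215 and 10132 UMIs in acupuncture replicates 1 and 2, against 11168 and 11773 in dysentery replicates 1 and 2, where all kept cells had medians of 7634, 9377, 6786 and 7084 UMIs in the same order. The 4 libraries held 152 barcodes shared between pairs of libraries, and 1 of these pairs included a member. Scrublet, a predictor of doublets (droplets with more than 1 cell), marked 11 and 1 acupuncture members and 4 and 0 dysentery members, which is 15.9% and 3.7% against 5.97% and 0%. Among all kept cells it marked 6.6% and 7.4% with acupuncture and 5.33% and 8.59% in dysentery.

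The summed milk RNA of the members was highest in acupuncture replicate 1. Over all UMIs of the members, the 5 milk genes took 1602 and 234 per 10000 with acupuncture, against 680 and 339 in dysentery. The median cell had 1359 and 240.4 per 10000 with acupuncture, against 525 and 247 in dysentery, and the richest single cell had 3623 per 10000. Group means of the library values were 918 ± 968 with acupuncture and 509 ± 241 in dysentery (SD, n = 2 each), a difference of 409 per 10000 (two-sided exact permutation p = 1). The rule set a minimum of this same measure in every library, so the level is mainly a description and no conclusion is drawn from the p-value. The threshold fell in a thin part of the distribution in acupuncture replicate 1, where 1 of 69 members lay between 100 and 200 per 10000, and in a fuller part in the other libraries, with 13 of 27 in acupuncture replicate 2, 13 of 67 in dysentery replicate 1 and 3 of 11 in dysentery replicate 2. The lowest members stood at 101 and 105 per 10000 with acupuncture and 111 and 137 in dysentery, and the highest cells that passed every other criterion but fell short of the threshold stood at 48.6 and 82.4 with acupuncture and 96.8 and 99.2 in dysentery.

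**Figure D1:**
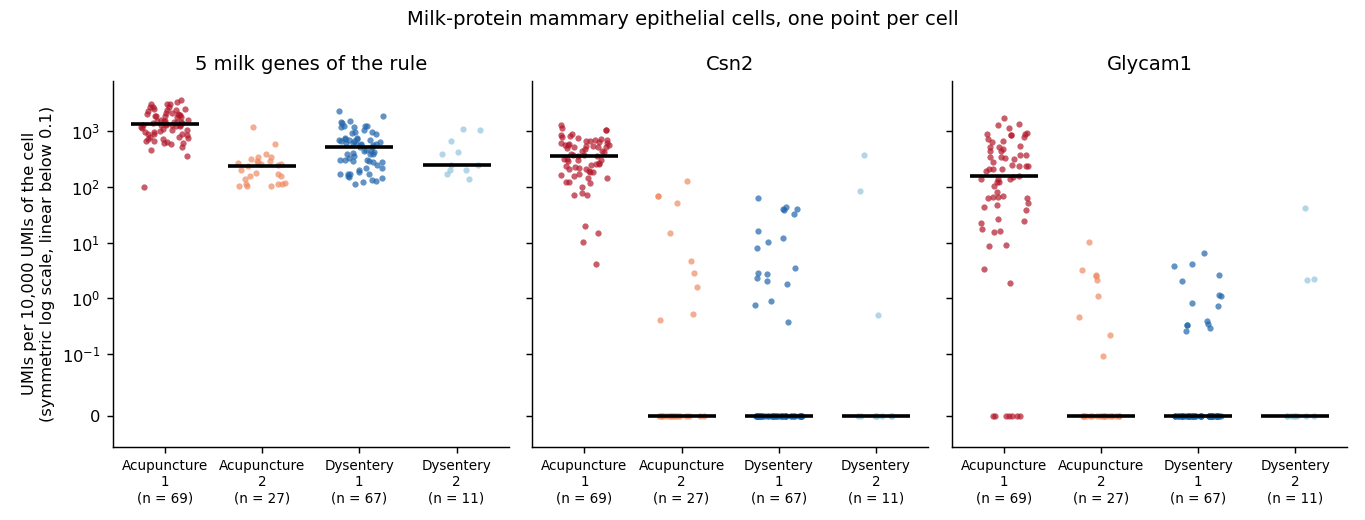
UMIs per 10000 UMIs of the cell for the 5 milk genes together, for Csn2 and for Glycam1, on a symmetric log axis, with 1 point per member and the median as a bar. Csn2 was present in 69 of 69 members of acupuncture replicate 1, against 10 of 27, 19 of 67 and 3 of 11 in acupuncture replicate 2 and dysentery replicates 1 and 2, where the medians were 0.

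The caseins, the main proteins of rat milk, did not vary to the same extent across libraries. Levels are CPM, the UMIs of a gene per 1000000 UMIs summed over the members of a library. Csn1s1 had 60093 and 15709.8 CPM in acupuncture members, against 48584 and 23815 CPM in dysentery members. Csn2, beta-casein, had 48118 and 314 CPM in acupuncture members, against 792 and 939 CPM in dysentery members. Csn2 was thus over 50-fold higher in acupuncture replicate 1 than in any other library, while Csn1s1 overlapped between the groups and kept within 4-fold. Csn1s2a had 4994 and 45.1 CPM in acupuncture members, against 314 and 86.3 CPM in dysentery members. Csn1s2b had 678 and 515 CPM in acupuncture members, against 1262 and 649.7 CPM in dysentery members. Csn3, kappa-casein, which coats and stabilises the micelle and was not used to choose the cells, had 51772 and 15917 CPM in acupuncture members, against 17475 and 23749 CPM in dysentery members. Acupuncture replicate 1 was the high library for Csn1s1, Csn2, Csn1s2a and Csn3, but not for Csn1s2b. Acupuncture replicate 2 was the low one for Csn1s1, Csn2, Csn1s2a, Csn1s2b and Csn3.

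The whey proteins also varied to unlike extents, and did not share a high library. Lalba had 11134 and 6347 CPM in acupuncture members, against 16529.9 and 7563 CPM in dysentery members. Wap, whey acidic protein, had 7859.7 and 876 CPM in acupuncture members, against 2014 and 1513 CPM in dysentery members. Lalba was highest in dysentery replicate 1 and Wap in acupuncture replicate 1. Glycam1 had 33027 and 133 CPM in acupuncture members, against 36.7 and 40.6 CPM in dysentery members. Its acupuncture libraries both stood above both dysentery libraries, but acupuncture replicate 2 was closer to them than to its own replicate. Transferrin (Tf), an iron carrier, had 25942 and 16104 CPM in acupuncture members, against 29939.7 and 37261 CPM in dysentery members. Lipocalin 2 (Lcn2), an iron-sequestering antibacterial protein, had 5929.6 and 6565 CPM in acupuncture members, against 8132 and 6689.8 CPM in dysentery members. Neither was used to choose the cells, and both were lower in every acupuncture library, Lcn2 by little. Of all genes tested, 32.6% did not overlap between the groups in either direction. Ltf, lactoferrin, had 0 UMIs in the members of every library.

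The high Csn2 and Glycam1 of acupuncture replicate 1 were spread over its cells. Csn2 per 10000 had a lower quartile of 187 and a median of 364 across those 69 members, and the richest member had 1299. After each cell was thinned to 2000 UMIs, Csn2 was found in 63 of 63 acupuncture replicate 1 members and 6 of 23 acupuncture replicate 2 members, against 15 of 66 dysentery replicate 1 and 1 of 10 dysentery replicate 2 members. Thinning left out 6 and 4 acupuncture members and 1 and 1 dysentery members that were shallower. Glycam1 at that depth was found in 55 of 63 and 1 of 23 acupuncture members, against 4 of 66 and 1 of 10 dysentery members. Without thinning, Glycam1 was found in 62 of 69 and 9 of 27 acupuncture members, against 15 of 67 and 3 of 11 dysentery members.

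Immune-gated cells, which should lack milk genes, gave the background for these shares (Ptprc of at least 1 and 0 UMIs of Krt8 and Krt18, at median depths of 8668.5 and 10042.5 UMIs with acupuncture and 6867.5 and 7760 UMIs in dysentery). At 2000 UMIs, Csn2 was in 3.24% and 0% of acupuncture immune-gated cells, against 0.162% and 0% of those in dysentery, where 0 of 4380 allows a share of cells with a UMI at that depth of up to 0.0685% and 0 of 3469 up to 0.0865%. The members' shares of 100% and 26.1% with acupuncture, and of 22.7% and 10% in dysentery, lay above those of immune-gated cells of the same library. Csn2 is a gene of the rule, so the choice of members favoured this gap and it is no test. In dysentery replicate 2, 1 cell carried the thinned share, which lay under the limit of 30% set by 3 cells, and its interval was 0.253 to 44.5%.

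**Figure D2:**
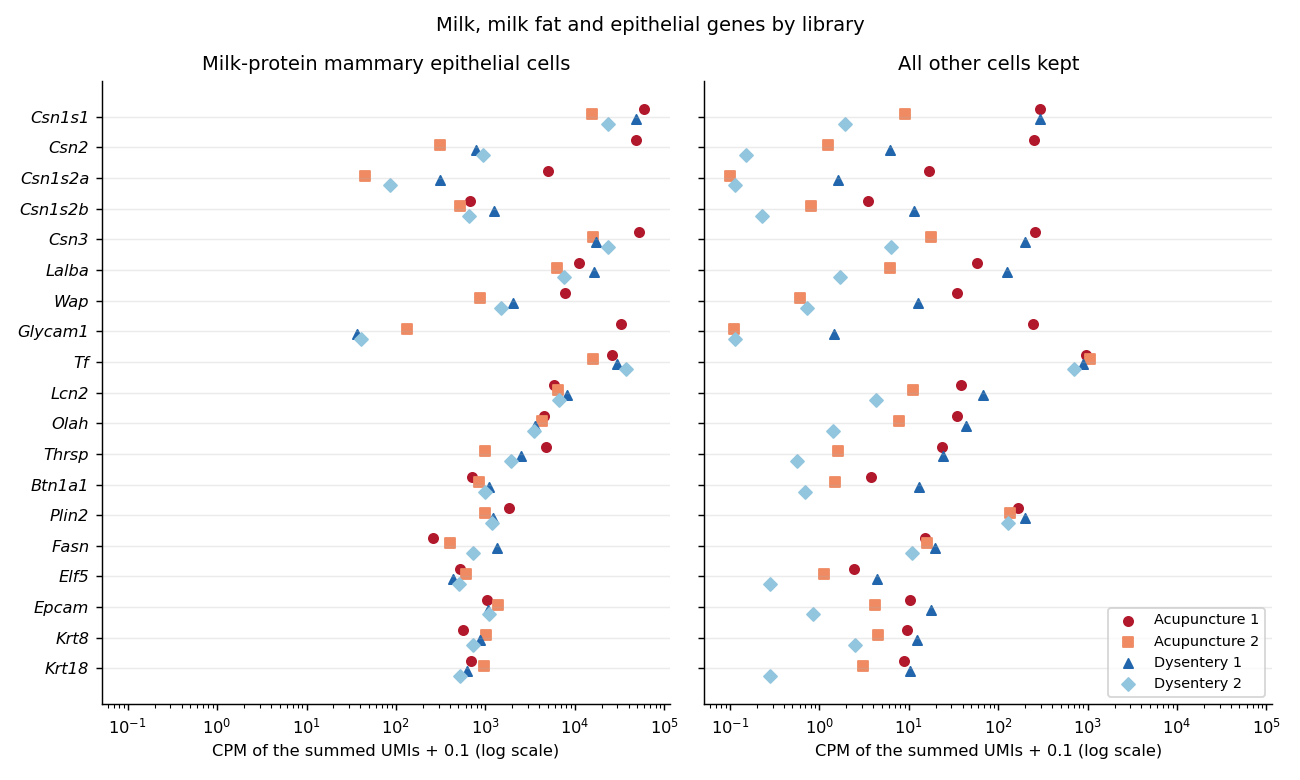
CPM (plus 0.1, log axis) of 19 genes in the milk-protein cells (left) and in all other cells kept (right), with 1 symbol per library. The symbols of Csn2, Csn1s2a and Glycam1 lie far apart in the members, with acupuncture replicate 1 at the top, while those of Elf5, Epcam and Olah nearly coincide.

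The link between milk-gene levels from cell to cell varied with the pair of genes and the library. Pearson's r was computed on the log2 of 1 plus the UMIs per 10000 UMIs of the cell. Between Csn1s1 and Csn3 it was 0.64 over 69 cells of acupuncture replicate 1 and 0.25 over 27 cells of acupuncture replicate 2. In dysentery it was -0.11 over 67 cells of replicate 1 and -0.33 over 11 cells of replicate 2. Between Csn1s1 and Lalba it was 0.38 and 0.19 with acupuncture, against 0.35 and 0.24 in dysentery. Between Lalba and Wap it was 0.25 and 0.21 with acupuncture, against 0.53 and -0.08 in dysentery. By ranks, dysentery replicate 1 gave a Spearman's rho of 0.65 between Csn1s1 and Lalba and 0.56 between Lalba and Wap, and in dysentery replicate 2 the value between Csn1s1 and Csn3 turned to 0.17. The cells of a library share its preparation, each pair of values shares the depth of its cell, and the rule bounds the sum of Csn1s1, Lalba and Wap from below. Csn3 was unevenly spread in dysentery replicate 1, where its lower quartile was 1.83 and its upper quartile 265 per 10000, and 57 of 67 members had any. In acupuncture replicate 1 all 69 members had Csn3, with a lowest value of 129 per 10000.

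Secretory identity was described by setting the CPM of the members beside that of all other kept cells of the same library. Of 8700 genes at 10 CPM or more, 408 were at least 2-fold higher in members in all 4 libraries (4.69%) and 1086 at least 2-fold lower (12.5%), with 10 CPM added to both sides, and the median log2 ratio of all these genes was -0.23. Of the 18 genes at that level among 21 caseins and whey proteins, 14 were higher and 0 lower, 5 of them genes of the rule, and the median log2 ratio over the 21 was 3.57. Besides the caseins these included the membrane mucins Muc1 and Muc15, the fatty acid binding protein Fabp3 and the folate receptor Folr1. Muc15 had 111 and 75.9 CPM in acupuncture members and 155 and 112 CPM in dysentery members, against 1.36 CPM or less in the other cells of each library.

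**Figure D3:**
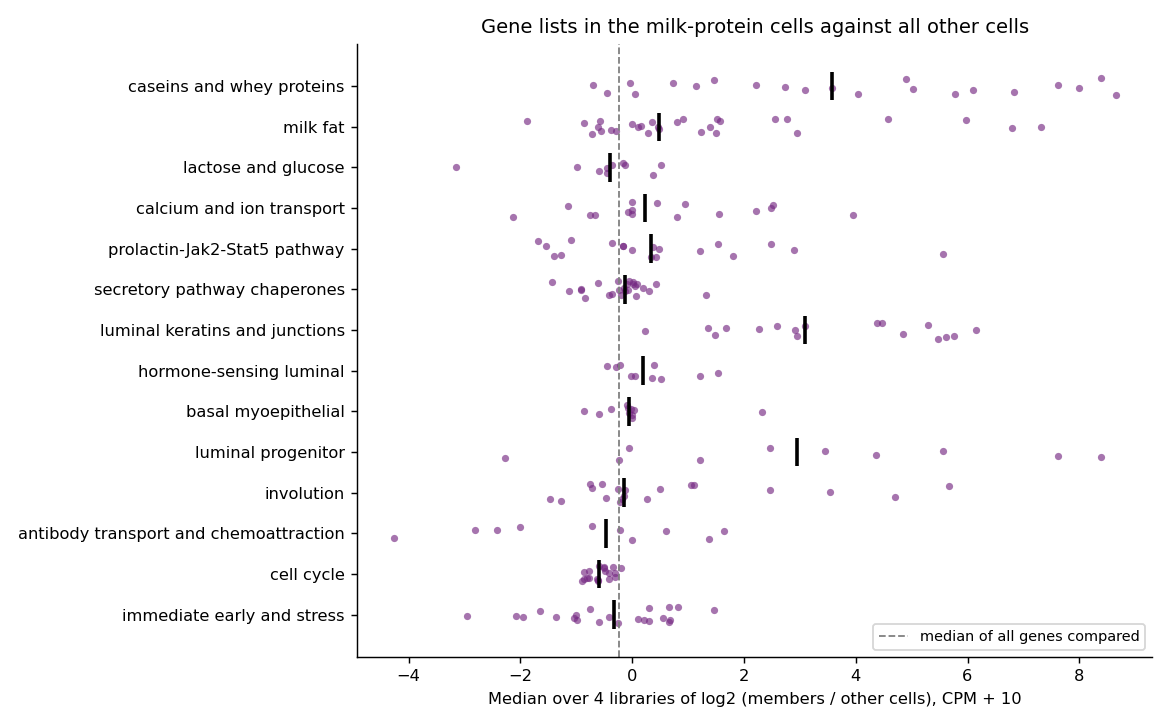
Log2 ratio of milk-protein cells over all other cells (CPM plus 10, median over 4 libraries), 1 point per gene, by gene list, with the list median as a bar and the median of all genes compared, -0.23, as a dashed line. The bars of caseins and whey proteins (3.57), luminal keratins and junctions (3.09) and luminal progenitor genes (2.95) lie far to the right of it. The luminal progenitor list shares Csn3 and Lcn2 with the caseins and whey proteins.

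Milk fat genes were higher for a few members of the list and near other cells for most. Of 26 genes at 10 CPM among 29, 9 were higher and 1 lower, with a median log2 ratio of 0.49. Olah, the thioesterase that releases medium-chain fatty acids, had 4580.4 and 4304 CPM in acupuncture members, against 3563 and 3477 CPM in dysentery members, where the other cells of the 4 libraries had 43.9 CPM or less. Thrsp, a regulator of fatty acid synthesis, had 4748 and 999 CPM in acupuncture members, against 2518 and 1949 CPM in dysentery members. Fasn, the fatty acid synthase, had 263 and 400.0 CPM in acupuncture members, against 1339.5 and 736 CPM in dysentery members. Olah varied little over libraries, while Fasn was lower in both acupuncture libraries than in both dysentery libraries, where 32.6% of all genes did not overlap in either direction. Butyrophilin (Btn1a1), a protein of the milk fat globule membrane, had 710.4 and 839 CPM in acupuncture members, against 1107 and 989.8 CPM in dysentery members. Its partner in that membrane, Xdh, had 130.3 and 94.4 CPM in acupuncture members and 141 and 142 CPM in dysentery members, close to the 78.5 to 105 CPM of other cells. The lipid droplet coat gene Plin2 was above 1000 CPM in the members of every library, against at most 201 CPM in other cells. Elovl6 had 0 UMIs in members.

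Per UMI, the lactose and secretory gene lists did not stand above other fascia cells. Members had more UMIs per cell than all kept cells by the median of each library, so levels per cell were not compared. Of 8 lactose and glucose genes at 10 CPM, 0 were higher and 1 lower. Over all genes 4.69% were higher and 12.5% lower, so a count of 0 in a list this short is near that share. B4galt1, the galactosyltransferase that works with alpha-lactalbumin, had 21.96 and 12.3 CPM in acupuncture members and 8.91 and 0 CPM in dysentery members, against 41.7 and 35.3 CPM in other acupuncture cells and 26.3 and 28.2 CPM in other dysentery cells. Of 25 secretory pathway chaperones, 0 were higher and 0 lower in all 4 libraries, with a median log2 ratio of -0.12, against -0.23 over all genes. Xbp1, a transcription factor of secretory cells, was the chaperone-list gene with the highest ratio (median log2 1.32), at 656 and 236 CPM in acupuncture members, against 241 and 173 CPM in dysentery members. Among ion transport genes, 4 of 11 were higher and 1 lower, including the phosphate carrier Slc34a2 at 41.8 and 53.3 CPM in acupuncture members and 99.1 and 30.5 CPM in dysentery members, and the secretory pathway calcium pump Atp2c2 at 37.5 and 28.7 CPM and at 70.2 and 35.5 CPM in the same order.

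In the prolactin pathway, the transcription factor Elf5 was high and even. It had 526 and 601 CPM in acupuncture members, against 431 and 513 CPM in dysentery members, and at most 4.27 CPM in other cells. It was found in 61 of 69 and 26 of 27 acupuncture members, against 60 of 67 and 9 of 11 dysentery members. Stat5a had 64.5 and 92.3 CPM in acupuncture members, against 108 and 71.1 CPM in dysentery members. The prolactin receptor Prlr had only 28.3 and 12.3 CPM in acupuncture members, against 22.3 and 20.3 CPM in dysentery members, and rested on 40 and 6 UMIs and on 20 and 4 UMIs. Of 16 genes of this pathway at 10 CPM, 5 were higher and 2 lower, and Socs2, an inhibitor that Stat5 induces, had 2 UMIs in acupuncture members and 1 UMI in dysentery members.

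The label was checked against marker genes of the mammary layers. Besides the keratins of the rule, Epcam had 1033 and 1389 CPM in acupuncture members, against 1077 and 1106 CPM in dysentery members, and the tight junction gene Cldn3 499 and 849 CPM against 755 and 685 CPM. Of 16 luminal keratin and junction genes at 10 CPM, 15 were higher and 0 lower, and 2 of the list, Krt8 and Krt18, were fixed by the rule. Genes of alveolar or luminal progenitors were also present. Of 8 luminal progenitor genes at 10 CPM, 6 were higher and 1 lower in all 4 libraries, and Itga2 had 0 UMIs in members. The 6 include Csn3 and Lcn2, counted above with the caseins and whey proteins, and Elf5 of the prolactin pathway. This count is therefore not separate from those. Sox10 had 108 and 149.8 CPM in acupuncture members, against 111 and 91.4 CPM in dysentery members, and Sox9 had 211 and 421 CPM against 264 and 249 CPM. Contractile and basal keratin genes were low. Krt17 and Oxtr, the oxytocin receptor of contracting basal cells, had 0 UMIs in every library, and the 7 basal markers summed to 2.12 and 10.3 CPM in acupuncture members and 11.1 and 0 CPM in dysentery members. The integrin gene Itgb4, on a wider list of 11 basal genes, went the other way, with 67.3 and 84.1 CPM in acupuncture members and 70.2 and 45.7 CPM in dysentery members, against at most 7.59 CPM in other cells. Genes of hormone-sensing luminal cells were low but not all absent. Their 6 markers summed to 57.4 and 94.4 CPM in acupuncture members and 31.2 and 20.3 CPM in dysentery members, against 22.3 and 22.2 CPM in other acupuncture cells and 11.3 and 5.81 CPM in other dysentery cells. The oestrogen receptor Esr1 had 0 UMIs in members, while Prlr was at least 2-fold higher than in other cells of all 4 libraries. Cited1 had 22.7 and 57.4 CPM in acupuncture members, against 5.57 and 0 CPM in dysentery members. These marker levels go with the name luminal milk-protein epithelium.

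Genes of milk stasis and gland regression were mixed. Lbp, a binder of bacterial endotoxin, had 3329 and 3147 CPM in acupuncture members, against 3427 and 3177 CPM in dysentery members. Clu, a chaperone induced in regression, had 2593 and 1479 CPM in acupuncture members, against 984 and 756 CPM in dysentery members. Tgfb3, a trigger of alveolar cell death, had 177 and 265 CPM in acupuncture members, against 315 and 239 CPM in dysentery members. Lbp hardly varied, while Clu was higher in both acupuncture libraries, where 32.6% of all genes did not overlap in either direction. Of 17 such genes at 10 CPM, 4 were higher and 1 lower than in other cells. Of 8 cell-cycle genes at 10 CPM, 0 were higher and 0 lower in all 4 libraries, against 4.69% and 12.5% of all genes. Mki67 was found in 6 of 69 and 0 of 27 acupuncture members, against 1 of 67 and 0 of 11 dysentery members. The carrier of antibodies into secretions, Pigr, had 6.37 and 0 CPM in acupuncture members, against 6.68 and 5.08 CPM in dysentery members.

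Outside the lists and the rule, the 20 genes with the largest ratio were led by Prr27 and Snorc. Prr27 had 7019 and 4470.1 CPM in acupuncture members, against 3731 and 1639 CPM in dysentery members. Snorc had 367 and 2482 CPM in acupuncture members, against 2789 and 2487 CPM in dysentery members, so that acupuncture replicate 1 was the low library. Sncg, gamma-synuclein, had 1386 and 2675 CPM in acupuncture members, against 3949.6 and 3385 CPM in dysentery members. Krt15, a keratin, had 538 and 931 CPM in acupuncture members, against 553 and 391 CPM in dysentery members. The others were ENSRNOG00000023151, AABR07006242.1, Pdk4, Chi3l1, Anxa8, Aldoc, Plet1, Qsox1, Sectm1b, Rab25, Plscr2, Podxl, ENSRNOG00000068478, Inhbb, Tmprss4 and Ano1, with median log2 ratios from 3.69 to 6.52.

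RNA of other cell types in the members was uneven between libraries and not low in all of them. The 7 fibroblast markers summed to 3043 and 297 CPM in acupuncture members and 1052 and 15491 CPM in dysentery members, against 26232 to 39111 CPM in other cells. In dysentery replicate 2, 98.7% of the 2200 UMIs of Col1a1, Col3a1 and Dcn came from 1 of its 11 members. The 6 macrophage markers summed to 218 and 65.6 CPM in acupuncture members and 631 and 60.9 CPM in dysentery members, against 6920 to 9832 CPM in other cells. The 3 T cell markers stood at 0 and 0 CPM in acupuncture members and 2.23 and 0 CPM in dysentery members. Of 4 fat cell markers, Adipoq, Plin1 and Lep had 0 UMIs in the members, but Cidec did not. The 4 summed to 14.2 and 2.05 CPM in acupuncture members, against 3.85 and 2.91 CPM in other acupuncture cells. In dysentery they summed to 4.45 and 0 CPM in members, against 0.336 and 0.305 CPM in other cells. Haemoglobin Hba-a2 reached 3492 CPM in members of acupuncture replicate 2, against 1020 CPM in its other cells, and 1700 of the members' 1702 UMIs lay in 1 cell. The part of this RNA in the levels of milk genes was not tested, but without the 8 members with 100 or more fibroblast UMIs per 10000, an alternative added after seeing the data, edgeR again called 0 genes between the groups in the members.

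Between the groups, no gene passed the test in the members. In edgeR's quasi-likelihood test with Benjamini-Hochberg adjustment, 0 of 6041 genes were called (0.0%), 295 had an unadjusted p under 0.05 (4.88%), and DESeq2 called 1. That gene, ENSRNOG00000051885, to which the files give no symbol, had 1801 and 3619 CPM in acupuncture members, against 396 and 462 CPM in dysentery members (log2 fold change 2.65 ± 0.34 SE, edgeR adjusted p = 0.835). It also had 1649 and 1789 CPM in the other acupuncture cells, against 275 and 271 CPM in the other dysentery cells, so the difference was not particular to the members.

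Csn2 was higher with acupuncture by a log2 fold change of 4.97 ± 1.87 (SE) in the members, which did not pass (edgeR adjusted p = 0.947, n = 2 each). Without acupuncture replicate 1 the value was -1.59, in a fit where the lone acupuncture library is assumed to vary like the dysentery ones. Csn1s2a (3.76 ± 1.74) went the same way and turned to -2.42 without that library. Glycam1 had a log2 fold change of 8.91 ± 2.39 (edgeR adjusted p = 0.931), and 1.67 without acupuncture replicate 1. Csn1s1 (0.18 ± 0.71), Csn3 (0.82 ± 0.61), Wap (1.45 ± 0.92), Csn1s2b (-0.63 ± 0.39) and Lalba (-0.39 ± 0.50) stood closer to 0. Csn3 and Wap also turned without acupuncture replicate 1 (-0.51 and -1.15), Csn1s1 turned without acupuncture replicate 1 (-1.34) and without dysentery replicate 2 (-0.26), and Lalba turned without acupuncture replicate 2 (0.043) and without dysentery replicate 1 (0.29). The estimates of Csn2, Csn1s2a and Glycam1 therefore rest on acupuncture replicate 1.

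By list, 15 caseins and whey proteins were tested and 0 called, with a median log2 fold change of -0.22, against 0.02 over all genes. Of the 15, 3 had an unadjusted p under 0.05 in edgeR (Glycam1, Csn2 and Muc1), against 4.88% of all genes. Glycam1 and Csn2 are genes of the rule. Of these 15, 1 was higher and 4 lower with no overlap between the libraries of the groups, against 32.6% of all genes without overlap in either direction. For milk fat, 23 were tested, 2 were higher and 5 lower without overlap, and Fasn had the most negative value (log2 -1.65 ± 0.35, edgeR adjusted p = 0.931). Of 20 immediate early and stress genes, 4 were higher and 0 lower without overlap, with a median of 0.70 and 0 called. Jun had 3104 and 7867 CPM in acupuncture members, against 2499.8 and 1416 CPM in dysentery members, and 3804 and 3835 CPM in other acupuncture cells, against 1522 and 735 CPM in other dysentery cells. The neutrophil-attracting chemokine Cxcl1 had 614 and 5141 CPM in acupuncture members, against 520.0 and 279 CPM in dysentery members (log2 2.75 ± 0.85, edgeR adjusted p = 0.931, and log2 0.75 without acupuncture replicate 2). It had 979 and 1980.3 CPM in other acupuncture cells, against 61.8 and 66.8 CPM in other dysentery cells. In the members, for both genes, acupuncture replicate 2 was the high library.

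Each library was also set against every other one in the members, for 1410 genes at 100 CPM or more in at least 1 library, with 50 CPM added. At least 4-fold above each of the other libraries stood 3 genes in acupuncture replicate 1, 7 in acupuncture replicate 2, 5 in dysentery replicate 1 and 4 in dysentery replicate 2. The 3 of acupuncture replicate 1 were Glycam1, Csn2 and Csn1s2a, all milk genes. Those of acupuncture replicate 2 included Cxcl1, Cxcl2, Ier3, Gp2 and the haemoglobin genes Hba-a2 and Hbb-b1. The 5 of dysentery replicate 1 were the leukocyte genes Cd74, RT1-Da, RT1-Db1, Lyz2 and S100a9, and the 4 of dysentery replicate 2 were Col1a1, Col1a2, Col3a1 and Sparc, which fibroblasts express. Genes at least 4-fold below each of the others included Snorc and Rpl38 in acupuncture replicate 1, and Fabp3 and Postn in acupuncture replicate 2. Rpl38, a ribosomal protein, had 44.6 CPM in the members and 51.5 CPM in the other cells of acupuncture replicate 1, against at least 612 CPM in other cells of the remaining libraries. This search was chosen after the values were seen.

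Milk RNA was also found outside the members. Of all milk UMIs in kept cells, members held 79.0% and 88.1% with acupuncture and 73.3% and 95.3% in dysentery. Cells that were as rich in milk RNA but failed on Ptprc, Pecam1 or keratin held 19.8% and 6.92% with acupuncture, in 22 and 6 cells, against 22.7% and 1.51% in dysentery, in 36 and 1 cells. Among these, 6 and 1 cells with acupuncture and 14 and 0 in dysentery had Ptprc, and 13 and 4 against 15 and 1 had fewer than 2 keratin UMIs. All remaining cells together held 1.19% and 4.99% with acupuncture, against 3.96% and 3.16% in dysentery.

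**Figure D4:**
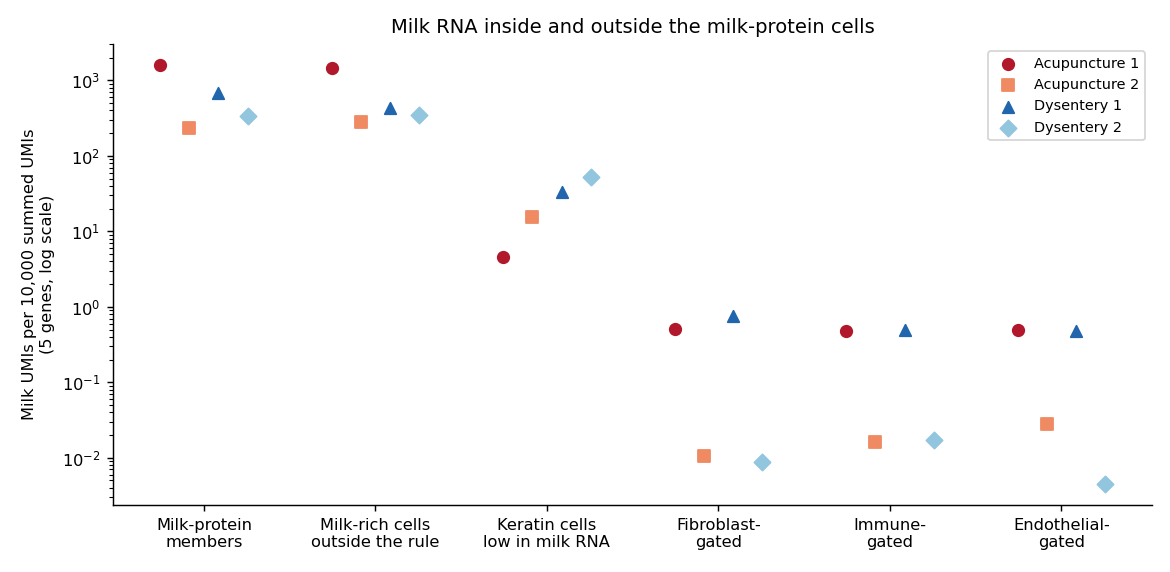
Milk UMIs (5 genes) per 10000 UMIs, summed over each class of cells and library, on a log axis. In fibroblast-, immune- and endothelial-gated cells the libraries numbered 1 lie above those numbered 2 in both groups, by more than 10-fold.

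In immune-gated cells, milk RNA stood at 0.471 and 0.0164 UMIs per 10000 with acupuncture, against 0.493 and 0.0170 per 10000 in dysentery (difference of means -0.011, two-sided exact permutation p = 0.667). In fibroblast-gated cells (at least 5 UMIs of Col1a1, Col3a1 and Dcn, and 0 of Ptprc, Pecam1, Krt8 and Krt18) it stood at 0.511 and 0.0107 per 10000 with acupuncture, against 0.756 and 0.00885 in dysentery (difference -0.122, two-sided exact permutation p = 1). In both classes the 2 libraries numbered 1 were over 20-fold above those numbered 2, and the groups overlapped. Fibroblast-gated cells held 1 cell above 100 per 10000 in acupuncture replicate 1 and 1 in dysentery replicate 1, and stood at 0.472 and 0.494 there without it, while immune-gated cells of dysentery replicate 1 held 2 and stood at 0.459 without them. Of 6 milk genes with enough counts, 0 were called in the immune-gated cells and 0 in the fibroblast-gated cells by edgeR, against 115 of 13650 genes (0.842%) and 201 of 13389 genes (1.5%) called in all. The smallest unadjusted p was that of Csn2 in both, 0.13 and 0.068, so 0 milk genes were under 0.05, and DESeq2 called 0.

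At 2000 UMIs, 9.66% and 0.160% of immune-gated acupuncture cells had a milk UMI, against 8.81% and 0.259% in dysentery, and without thinning 31.4% and 1.67% against 26.2% and 1.18%. For fibroblast-gated cells the thinned shares were 9.37% and 0.215% with acupuncture, against 8.80% and 0.206% in dysentery. Immune-gated and fibroblast-gated cells of a library thus gave nearly the same share. The difference of group means was 0.376 points in immune-gated and 0.293 points in fibroblast-gated cells (two-sided exact permutation p = 1 and p = 0.667).

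The make-up of this RNA was near that of the members in acupuncture replicate 1, and Csn2 and Glycam1 were low in members and gated cells alike in dysentery replicate 1. Csn2 took 30.03% of milk UMIs in members, 31.0% in fibroblast-gated cells and 27.6% in immune-gated cells of acupuncture replicate 1, and 1.17%, 0.542% and 1.14% in those of dysentery replicate 1. Glycam1 took 20.6%, 18.4% and 16.8% in acupuncture replicate 1, and 0.0541%, 0.136% and 0.229% in dysentery replicate 1. In dysentery replicate 1 the fibroblast- and immune-gated values rest on 8 and 15 UMIs of Csn2 and on 2 and 3 UMIs of Glycam1. Of the 1476 milk UMIs in its fibroblast-gated cells, 963 lay in cells under 100 per 10000 and the rest in 1 cell. For each 100 UMIs of Csn1s1, Csn3 had 86.2, 113 and 95.3 UMIs in acupuncture replicate 1, and 36.0, 41.2 and 50.6 in dysentery replicate 1. In acupuncture replicate 2 and dysentery replicate 2 the gated classes held 39 to 77 milk UMIs in all, and Lalba took 50.6% and 52% of those in immune-gated cells, against 27.1% and 22.3% in members, but 17.9% and 23.1% of those in fibroblast-gated cells. Whether this RNA was free in the suspension was not tested.

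**Figure D5:**
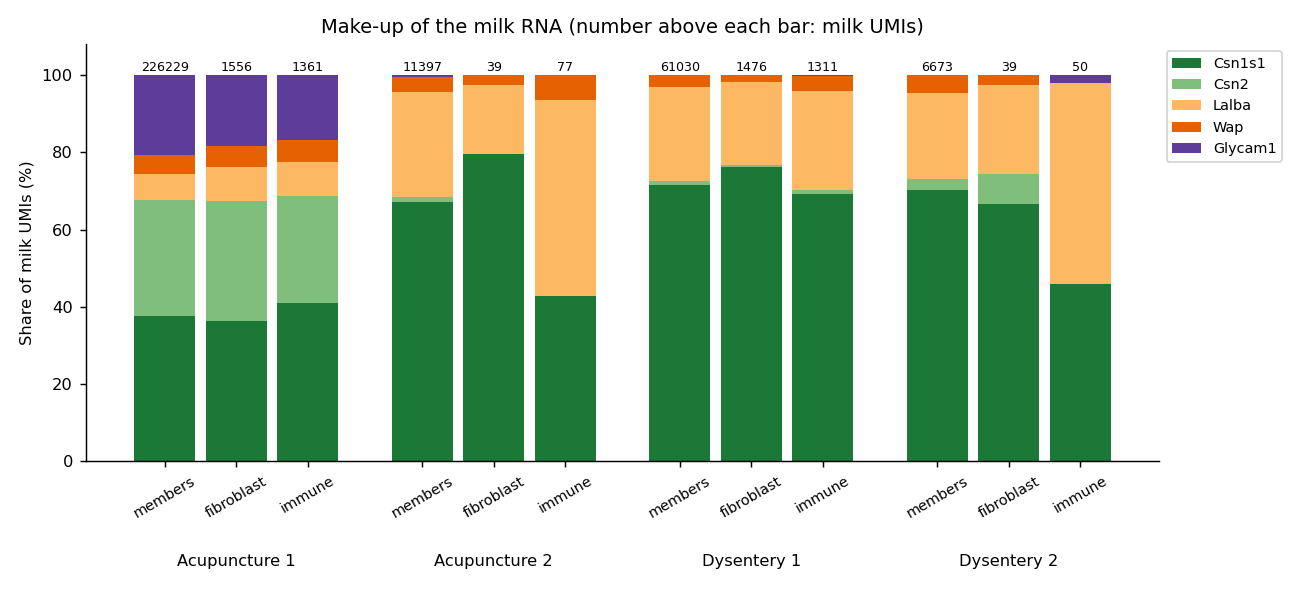
Share of the 5 genes in the milk UMIs of members, fibroblast-gated and immune-gated cells of each library, with the number of milk UMIs above each bar. Csn2 and Glycam1 take a large share in all 3 classes of acupuncture replicate 1 and at most 7.69% in any other bar.

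Cells that met the keratin criterion but lay under the milk threshold were 14 and 20 with acupuncture and 26 and 3 in dysentery. Their summed RNA held genes of several kinds of cell, and how these genes were spread over single cells was not tested. The basal gene Acta2 had 1265 and 251 CPM with acupuncture, against 153 and 0 CPM in dysentery, and Cited1, of hormone-sensing cells, had 904 and 386 CPM against 272 and 0 CPM, where members stood at 57.4 CPM or less for both genes. Epcam reached 1663 and 1125 CPM with acupuncture, against 1359 and 334 CPM in dysentery. In these cells Csn3 exceeded Csn1s1, with 451 against 133 UMIs in acupuncture replicate 2, 1055 against 323 in dysentery replicate 1 and 135 against 36 in dysentery replicate 2, while acupuncture replicate 1 had 22 against 24. The rule bounds Csn1s1 in them from above and does not bound Csn3, so this order was partly set by the choice of cells.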

How the data were processed

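Per the labels, fascia was digested, dead and red blood cells were removed, and 3′ droplet libraries were made. Per the file headers and the submitters' processing notes, matrices came from Cell Ranger 6.0.1 with STAR. The notes name mRatBN7.2 and GRCh38.p13 without a role. What the authors deposited are whole-number UMI counts, with no normalization, over 30560 genes. Other files name the cells and genes, and 7162 genes carry an identifier and no symbol. The acupuncture libraries summed to 70499776 and 93897006 UMIs, and the dysentery libraries to 53066666 and 79461544.

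The members, gene lists and the rule for named genes were chosen with earlier results of these data known. Any gene of the lists could be named, and so could the 20 genes outside them with the largest median ratio at 100 CPM or more in members of every library, and the 10 largest rises and falls past the test. ENSRNOG00000051885 and the genes on which 1 library stood apart were chosen after their values were seen. Symbols that matched no row were left out of the counts.

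Counts were summed over cells per library, and the library was the replicate. edgeR 4.0.16 (R 4.3.3) was run with TMM, filterByExpr and a threshold of 0.05 on adjusted p, and DESeq2 1.42.0 as an alternative. Settings that left under 10 members in a library left that library out. Cells were thinned by hypergeometric draws, which for single milk genes was chosen after the data were seen. On simulated member counts (5653 genes), edgeR recovered 88.2% of genes changed by 2 on the log2 scale and 98.9% of those changed by 3. It made 16 false calls there. Each simulated gene was given the median dispersion (spread between libraries), so this recovery does not carry over to genes that varied more. In the real counts, Glycam1 at a log2 fold change of 8.91 and Csn2 at 4.97 were not called. Doublets were predicted with Scrublet in scanpy 1.11.5 at 0.8% per 1000 cells and kept. Other values used Python 3.11.15 and scipy 1.17.1. Promoters came from RefSeq GRCr8. Alternatives were the thresholds of the rule, doublet removal, other scaling and filters, a replicate block and each library left out.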

Additional observations from a re-analysis of the deposited data

How the results depend on the processing

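The difference in the members' share turned to -0.0482 points at a milk threshold of 50, -0.0087 with 4 keratin UMIs, -0.0271 without predicted doublets and -0.0139 without members rich in fibroblast RNA (added after seeing the data), and ranged from -0.441 to 0.462 with single libraries left out. The milk level of members turned without acupuncture replicate 1 only, and ranged from -275 to 1093 per 10000. Outside the members, the milk level ranged from -0.249 to 0.227 per 10000 (immune-gated) and from -0.495 to 0.252 (fibroblast-gated) with libraries left out. It turned to 0.00568 in immune-gated cells without cells above 100 per 10000, and in fibroblast-gated cells to 0.0418 at a mitochondrial limit of 10% and 0.0182 without doublets. Thinned shares ranged from -4.38 to 5.13 and from -4.29 to 4.87 points, and the fibroblast-gated one turned to -0.215 at 1000 UMIs. The cause was not tested.

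Calls among the members numbered 0 to 219 with libraries left out: 219 without acupuncture replicate 1 and 163 without acupuncture replicate 2, where the lone acupuncture library is assumed to vary like the dysentery ones, and 0 without either dysentery library. DESeq2 called 1 gene, no filter on counts 110, and a mitochondrial limit of 10%, which left 3 libraries, 14. The other settings gave 0, except the crossed pairing below. Calls over all genes moved more, from 0 to 489 (immune-gated) and 29 to 821 (fibroblast-gated) with libraries left out, and to 1179 and 814 with DESeq2; immune-gated calls numbered 0 without predicted doublets.

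The labels do not say that the replicate numbers pair the libraries. Deviations of same-numbered libraries had a Pearson correlation across genes of -0.17 in members, 0.16 in immune-gated and 0.039 in fibroblast-gated cells. A replicate block gave 0 calls in the members, and Csn1s1 had a log2 fold change of -0.12. The crossed pairing, added after seeing the data, gave 12 calls, with Csn1s1 at -0.12.

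Csn1s1 was also at -0.32 at the mitochondrial limit of 10%, -0.35 at a milk threshold of 200 and -0.32 with 4 keratin UMIs, but these settings also left out dysentery replicate 2 (9, 8 and 8 members), which alone gave -0.26. With libraries left out, log2 fold changes ranged from -1.34 to 0.89 (Csn1s1), -1.59 to 5.96 (Csn2), -2.42 to 5.04 (Csn1s2a), -0.51 to 1.49 (Csn3), -1.06 to 0.29 (Lalba) and -1.15 to 2.31 (Wap). Glycam1, Csn1s2b, Fasn, Xbp1, Cxcl1 and ENSRNOG00000051885 kept their signs in all settings run, with ranges over left-out libraries of 1.67 to 9.91, -1.04 to -0.065, -2.02 to -1.15, 0.013 to 1.79, 0.75 to 3.52 and 2.24 to 2.95. With 11 members in dysentery replicate 2, genes under about 10 UMIs there could not be followed.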
